A study of Mus musculus with 12 samples.

Results

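The p53 target genes described here are 37 mouse genes that are known targets or partners of the transcription factor p53, among them *Trp53* itself. They were selected from that literature knowledge by gene symbol, and the differences between genotypes in these same libraries were already known when the list was made, so their genotype differences are given as a description and not as a test of the list. All 37 genes have a row in the table of 22467 transcripts, 1 transcript per gene, and 35 of them are among the 12576 transcripts that passed the filter on low counts. The libraries come from whole mouse embryos at embryonic day 8.5 (E8.5), 3 wild-type (Rpl10a +/+, WT) and 3 homozygous mutant (Rpl10a LOF/LOF, LOF), each embryo lysed alone and not pooled. The LOF allele, made by CRISPR on a C57BL/6 background, carries a deletion inside intron 1 of *Rpl10a* that leaves what remains of the intron in the message, so that extra amino acids follow the initiator methionine of the ribosomal protein RPL10A/uL1, and it is a hypomorph, not a null. Each embryo gave 1 library of ribosome-protected fragments (RPFs), the stretches of mRNA that ribosomes cover, and 1 library of RNA from the same clarified lysate, 12 libraries in all. All lysates contained cycloheximide, which arrests elongating ribosomes. The comparison asks how RPFs, RNA and their ratio (RPF/RNA, translation efficiency) of each p53 target differ between the genotypes.

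p53 is a transcription factor that is kept scarce in unstressed cells by the ubiquitin ligase MDM2 and its partner MDM4. Damage to DNA, or ribosomal proteins such as RPL5 and RPL11 that bind MDM2 when ribosome assembly is disturbed, release p53 from this control. It then activates genes that arrest the cell cycle, repair DNA, alter metabolism or kill the cell, and also *Mdm2*, which closes a negative feedback loop. Early mouse embryos are known to be sensitive to p53, and loss of *Mdm2* kills them unless p53 is removed too.

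Counts per library were 7041357 to 10863499 for RPFs and 9132521 to 26561843 for RNA. Values below are CPM, counts scaled to a library of 1e+06 counts, after TMM scaling within each kind of library, and each triplet gives embryos 1, 2 and 3 of a genotype. *Rpl10a* was lower in LOF embryos in RPFs (log2 fold change -0.64 ± 0.07, SE, FDR = 0.00689) and in RNA (-0.23 ± 0.06, FDR = 0.0678). Here and below FDR is the adjusted p of edgeR's quasi-likelihood test (Benjamini-Hochberg over the 12576 transcripts), and a gene is said to rise or fall only where it is under 0.1. The labels do not say whether the embryos of a genotype share a litter, and p-values measure the spread between these embryos alone. Reads of 4 genes on the Y chromosome (*Uty*, *Kdm5d*, *Ddx3y*, *Eif2s3y*) summed to 163 to 181 CPM in the RPF libraries of the WT embryos, to 153 CPM in LOF embryo 2, and to 9.33 and 0.38 CPM in LOF embryos 1 and 3, so 2 of the 3 LOF embryos were almost without Y-linked reads. Visceral endoderm markers fell (12 of 12 in RNA and 10 of 12 in RPFs), with a summed RNA level of 904 to 2259 CPM in LOF against 3203 to 4029 CPM in WT. Of the primitive erythroid markers 3 of 8 rose in RPFs, where the sums were 3517 to 5793 CPM in LOF and 839 to 2822 CPM in WT, and 1 of 8 rose in RNA (1523 to 2552 against 405 to 1703 CPM). Heart markers rose too, 4 of 5 in RNA (610.4 to 638 against 491 to 534 CPM) and 3 of 5 in RPFs (1469 to 1746 against 1125 to 1245 CPM). Paraxial mesoderm and tail bud markers summed to less in every LOF embryo (69.7 to 73.6 against 83.2 to 89.5 CPM in RPFs and 124 to 135 against 139.8 to 144 CPM in RNA), with 1 of 6 falling in RPFs and 0 of 6 passing in RNA. Neural markers were detected at 189 to 233 CPM in the RNA of all 6 embryos, and 0 of 5 neural and 0 of 5 endothelial markers passed the test in either. Of 3 neural crest markers 1 rose in RNA (*Tfap2a*). The part of these cell types in the differences below was not tested, and embryo sex entered only as a Y chromosome term in alternative fits. In whole embryos fewer cells of a type cannot be told apart from less RNA per cell.

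In RNA, 21 of the 35 genes tested rose in LOF embryos and none fell, against 1.77% of all transcripts that rose and 3.25% that fell. In RPFs, 14 of the 35 rose and none fell, against 1.05% and 1.15% of all transcripts. All 14 that rose in RPFs also rose in RNA. Over all transcripts, 62 of the 132 that rose in RPFs also rose in RNA (0.493% of those tested). The median log2 fold change of the 35 genes was 0.40 in RPFs and 0.39 in RNA, beside 0.0036 and -0.0018 over all transcripts tested. The 3 LOF embryos lay above all 3 WT embryos for 22 genes in RPFs and for 24 in RNA, against 9.92% and 10.2% of all transcripts. Since the list was made with these differences known, the counts describe the genes and are no evidence about the list. *Gdf15* and *Fas* did not pass the filter and are given at the end of the account of the genes. Leaving out WT embryo 1 or 2 left 5 or 4 genes called in RPFs, in fits that called only 10 and 4 transcripts higher in all, and the 4 that remained without WT embryo 2 were all p53 targets (*Cdkn1a*, *Ccng1*, *Phlda3* and *Eda2r*).

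**Figure D1:**
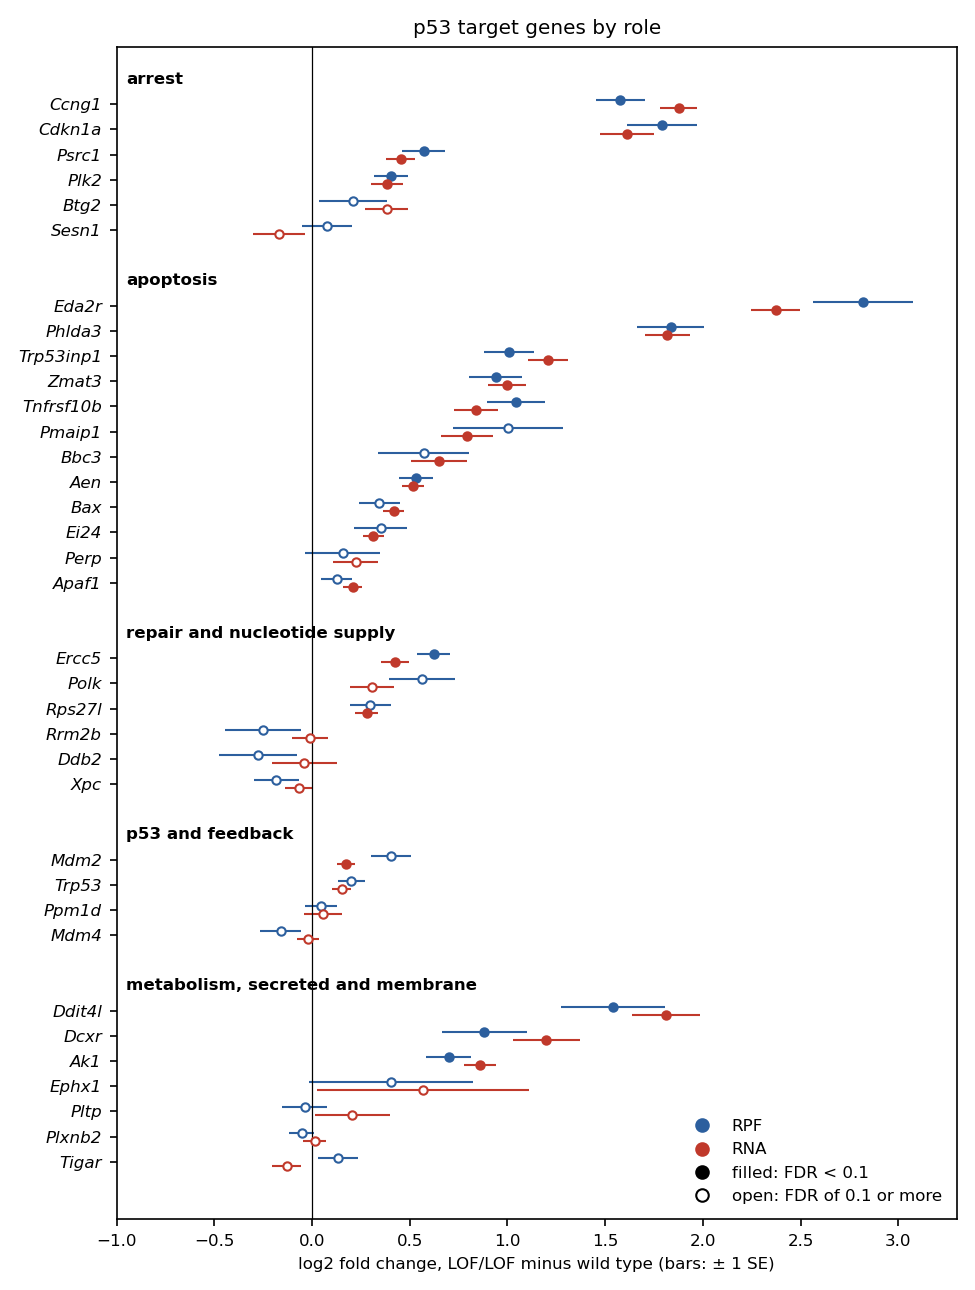
Log2 fold change of each of the 35 p53 target genes tested, LOF/LOF minus wild type, in RPFs (blue) and RNA (red), with 1 SE, grouped by role; filled points passed FDR under 0.1 and open points did not. The largest differences belong to *Eda2r*, *Ccng1*, *Phlda3*, *Cdkn1a* and *Ddit4l*, while p53 and its regulators lie between -0.16 and 0.41.

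p53 binds as a tetramer to pairs of a 10-base half-site, the p53 consensus decamer, which reads alike on both strands. RefSeq promoters (GRCm38.p6, 250 bases before to 50 after each annotated start) were found for 29 of the 37 genes, 43 promoters in all. A perfect half-site stood in 13 of these 43 promoters and in 8.36% of all 32851 promoters. A pair of half-sites 0 to 13 bases apart, with the central CNNG of each kept and at most 2 mismatches in all, stood in 6 of the 43 and in 4.09% of all promoters. These 6 are matches in letters to the p53 consensus, and binding was not measured. They are shown in the order of their mismatches, 5′ to 3′ on the gene's strand. Half-sites are in capitals, flanks and spacer in lower case:
Cdkn1a: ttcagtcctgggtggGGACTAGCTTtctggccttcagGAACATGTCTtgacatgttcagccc
Ccng1: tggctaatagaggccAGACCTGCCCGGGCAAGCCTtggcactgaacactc
Rps27l: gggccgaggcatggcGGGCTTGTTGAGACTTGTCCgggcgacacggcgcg
Bax: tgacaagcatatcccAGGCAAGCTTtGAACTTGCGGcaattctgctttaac
Sesn1: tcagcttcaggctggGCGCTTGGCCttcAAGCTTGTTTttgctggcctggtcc
Plxnb2: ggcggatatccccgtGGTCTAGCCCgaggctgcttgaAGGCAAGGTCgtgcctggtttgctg
The stretches lie at chr17:29090891-29090952 (*Cdkn1a*, plus strand), chr11:40755447-40755496 (*Ccng1*, minus strand), chr9:66946281-66946330 (*Rps27l*, plus strand), chr7:45467064-45467114 (*Bax*, minus strand), chr10:41887238-41887290 (*Sesn1*, plus strand) and chr15:89174044-89174105 (*Plxnb2*, minus strand). The pair of *Cdkn1a* has no mismatch and a spacer of 12 bases, and begins 73 bases before the start site. The half-site that stands second in it is also followed directly by a decamer that makes a pair with 1 mismatch and no spacer. Those of *Ccng1* and *Rps27l* have 1 mismatch and no spacer. That of *Rps27l* lies 117 bases before an alternative RefSeq start but 210 bases after the start of the transcript counted here, outside annotated exons. Those of *Bax*, *Sesn1* and *Plxnb2* have 2 mismatches, and the pairs of the last 2 genes lie before alternative starts far inside the gene, 77318 and 6698 bases after the start of the counted transcript. A match says only that these letters are present, and 4 of the 6 genes (*Cdkn1a*, *Ccng1*, *Rps27l* and *Bax*) rose in RNA while *Sesn1* and *Plxnb2* did not pass the test. Among promoters of genes that rose in RNA, 4 of 26 held a pair, and among the other members' promoters 2 of 17.

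*Trp53* and 3 of its regulators had log2 fold changes between -0.16 and 0.41. *Trp53*, which encodes p53 (chr11:69580359-69591872, plus strand, 11 exons), had RPF values of 354, 367 and 377 CPM in WT and 453, 402 and 409 CPM in LOF embryos. Its RNA was 141, 129.5 and 136 CPM in WT and 148, 147 and 155 CPM in LOF embryos. All LOF embryos lay above all WT embryos in both, but the differences were small and did not pass the test (log2 fold change 0.20 ± 0.067, FDR = 0.21 in RPFs and 0.15 ± 0.048, FDR = 0.142 in RNA). Without LOF embryo 2, or with surrogate variables in the fit, *Trp53* passed in RPFs, with a log2 fold change between 0.14 and 0.23 over all 14 alternative settings. About 33.4% of the 30-base windows of its coding sequence also occur in the pseudogene *Trp53-ps*, so part of its reads could be split. The same limit holds for *Rrm2b* (44.3% of windows, shared with *Gm8616*), *Bax* (30.0%, *Gm45808*, which also overlaps its exons on the same strand), *Mdm4* (27.7%, *Mdm4-ps*) and *Tnfrsf10b* (18.8%, *Gm15574*). Exons of *Ei24*, *Ddb2*, *Rrm2b*, *Tigar* and *Pltp* overlap a gene on the other strand, and whether the counting used strand is not given in the sources used here.

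*Mdm2*, the ubiquitin ligase that p53 itself induces (chr10:117688875-117710758, minus strand, 12 exons), had RNA values of 72.7, 75.9 and 75.1 CPM in WT and 83.8, 85.5 and 83.1 CPM in LOF embryos. Its RPFs were 28.2, 26.3 and 28.8 CPM in WT and 34.8, 41.4 and 34.2 CPM in LOF embryos. The groups did not overlap in either. The RNA rise was slight (log2 fold change 0.17 ± 0.046, FDR = 0.0858) and passed in 3 of 14 alternative settings, with an FDR of up to 0.472. The RPF difference was larger and just outside the threshold (0.41 ± 0.10, FDR = 0.104), and it passed in 4 of the 14. *Mdm4*, the partner of MDM2, had a log2 fold change of -0.16 ± 0.11, FDR = 0.558 in RPFs, with all LOF embryos below all WT embryos, and of -0.021 ± 0.055, FDR = 0.891 in RNA, where the groups overlapped. *Ppm1d*, the phosphatase WIP1 that turns off p53 signalling, had differences of 0.048 and 0.056, and its groups overlapped in both. Thus 1 of these 4 genes passed the test in RNA and none in RPFs.

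Of the 6 genes that act in cell cycle arrest, 4 rose in both RNA and RPFs. *Cdkn1a* encodes p21, the inhibitor of cyclin-dependent kinases through which p53 arrests the cycle (chr17:29090979-29099701, plus strand, 3 exons). Its RNA was 3.16, 2.801 and 2.51 CPM in WT embryos and 8.93, 7.86 and 8.68 CPM in LOF embryos. Its RPFs were 8.501, 6.09 and 7.71 CPM in WT and 32.8, 21.99 and 23.7 CPM in LOF embryos. Every LOF embryo was above every WT embryo, and the fitted rise was 3.05-fold in RNA (log2 fold change 1.61 ± 0.14, FDR = 0.000743) and 3.46-fold in RPFs (1.79 ± 0.18, FDR = 0.00237). *Ccng1* encodes cyclin G1, an atypical cyclin that recruits a phosphatase to MDM2 (chr11:40748552-40755311, minus strand, 6 exons). Its RNA was 75.2, 67.1 and 81.6 CPM in WT and 309.6, 261 and 249 CPM in LOF embryos, and it had the lowest p of all transcripts tested in both RNA and RPFs. Its RPFs were 16.3, 15.3 and 20.3 CPM in WT and 57.9, 47.2 and 50.5 CPM in LOF embryos. The rise was 3.67-fold in RNA (1.88 ± 0.093, FDR = 1.97e-05) and 2.99-fold in RPFs (1.58 ± 0.12, FDR = 0.000811), and both genes passed in all 14 alternative settings in RNA and in RPFs.

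Smaller rises were measured for *Psrc1*, which encodes a microtubule-binding spindle protein, and for *Plk2*, a polo-like kinase. *Psrc1* RNA (chr3:108383859-108388231, plus strand, 8 exons) was 33.9, 35.4 and 32.9 CPM in WT and 49.2, 43.3 and 47.8 CPM in LOF embryos, and its RPFs were 39.1, 39.3 and 36.4 and 61.7, 47.4 and 61.7 CPM. LOF embryo 2 was the lowest of the 3 in both, and the log2 fold changes were 0.45 ± 0.073, FDR = 0.0173 in RNA and 0.57 ± 0.11, FDR = 0.0481 in RPFs. *Plk2* RNA (chr13:110395046-110400844, plus strand, 14 exons) was 45.04, 42.2 and 43.7 CPM in WT and 50.99, 56.5 and 64.1 CPM in LOF embryos, and its RPFs were 64.3, 58.99 and 60.7 and 75.5, 77.97 and 89.6 CPM. LOF embryo 3 was the highest in both, and the differences were 0.39 ± 0.082, FDR = 0.041 in RNA and 0.40 ± 0.086, FDR = 0.0597 in RPFs. Both lost the RPF call in 5 of 14 alternative settings. *Btg2*, an antiproliferative cofactor of mRNA deadenylation, had all LOF embryos above all WT embryos in RNA but did not pass the test (0.38 ± 0.11, FDR = 0.106), and its RPFs overlapped (0.21 ± 0.17, FDR = 0.648). *Sesn1*, a sestrin that restrains mTORC1, overlapped in both, with -0.17 in RNA and 0.078 in RPFs.

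**Figure D2:**
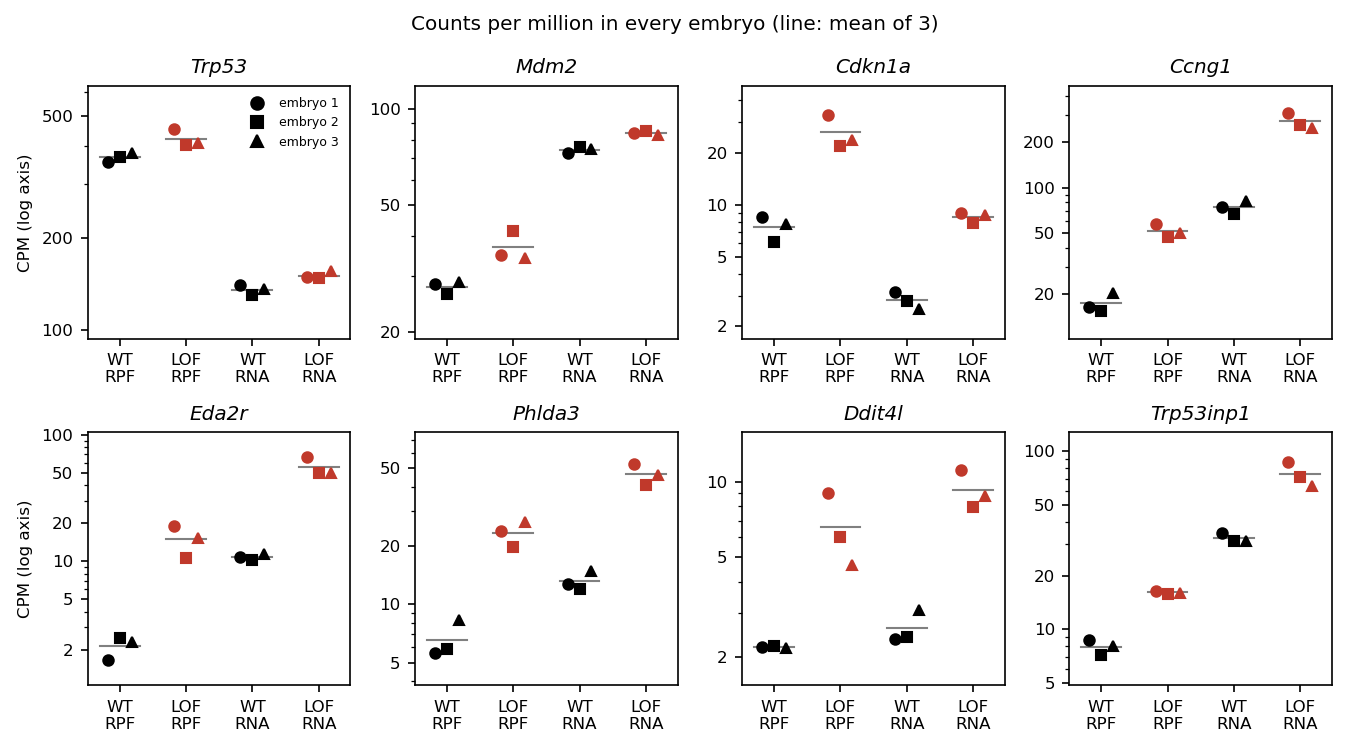
CPM on a log axis for *Trp53*, *Mdm2* and 6 target genes in every embryo (circle, square and triangle for embryos 1, 2 and 3; black for wild type, red for LOF/LOF; grey line, mean of 3), RPF libraries to the left and RNA libraries to the right of each panel. The red points lie above the black ones in every panel for RPFs and for RNA, by a small step for *Trp53* and *Mdm2* and by a large one for *Eda2r*.

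Among the 13 genes of apoptosis, 12 were tested, 11 rose in RNA and 6 of these also rose in RPFs. The receptors held the largest change. *Eda2r*, a receptor of the tumour necrosis factor family for ectodysplasin A2 (chrX:97333840-97377216, minus strand, 8 exons), had RNA values of 10.7, 10.2 and 11.3 CPM in WT and 66.6, 49.95 and 49.9 CPM in LOF embryos. Its RPFs were 1.65, 2.46 and 2.29 CPM in WT and 19.1, 10.6 and 15.4 CPM in LOF embryos, from 18 to 22 reads in each WT and 91 to 162 in each LOF library. It rose 5.17-fold in RNA (2.37 ± 0.13, FDR = 1.97e-05) and 7.05-fold in RPFs (2.82 ± 0.26, FDR = 0.00167), the largest RPF log2 fold change of all transcripts tested and the next to largest in RNA. The gene is X-linked, and LOF embryo 2, which had Y-linked reads like the WT embryos, was at 49.95 CPM in RNA and 10.6 CPM in RPFs. *Tnfrsf10b*, the mouse death receptor for TRAIL (chr14:69767472-69784411, plus strand, 8 exons), had RNA values of 12.4, 11.9 and 10.1 CPM in WT and 22.8, 18.4 and 19.7 CPM in LOF embryos, and RPFs of 14.7, 12.99 and 15.7 and 36.7, 25.1 and 28.3 CPM. LOF embryo 1 was the highest in both kinds of library, and the differences were 0.84 ± 0.11, FDR = 0.00771 in RNA and 1.04 ± 0.15, FDR = 0.0186 in RPFs.

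*Pmaip1*, *Bbc3* and *Bax*, BCL2 family genes whose products promote the opening of the outer mitochondrial membrane, rose in RNA by less. *Pmaip1* encodes NOXA, a BH3-only protein, and its RNA was 12.2, 13.1 and 14.1 CPM in WT and 27.9, 20.2 and 20.05 CPM in LOF embryos. Its RPFs were 2.47, 3.51 and 4.17 CPM in WT and 9.62, 4.77 and 6.18 CPM in LOF embryos. It rose in RNA (0.79 ± 0.13, FDR = 0.02), while the RPF difference was as large but less certain and did not pass (1.00 ± 0.28, FDR = 0.139), with LOF embryo 1 about 2 times LOF embryo 2. *Bbc3*, which encodes the BH3-only protein PUMA (chr7:16309616-16318205, plus strand, 4 exons), had RNA of 7.45, 7.83 and 7.52 CPM in WT and 14.6, 10.2 and 10.8 CPM in LOF embryos, and RPFs of 2.93, 1.99 and 2.398 and 3.06, 3.61 and 4.18 CPM. LOF embryo 1 was the highest in RNA and the lowest of the 3 in RPFs, and the gene passed in RNA (0.65 ± 0.14, FDR = 0.0462), a call lost in 4 of 14 alternative settings, but not in RPFs (0.57 ± 0.23, FDR = 0.308). *Bax*, the pore-forming effector (chr7:45461697-45466898, minus strand, 6 exons), had RNA of 59.5, 54.1 and 58.02 CPM in WT and 74.9, 75.7 and 78.04 CPM in LOF embryos. Its RPFs were 43.1, 44.8 and 46.8 CPM in WT and 53.1, 66.6 and 51.5 CPM in LOF embryos, highest in LOF embryo 2. The RNA difference was tight between embryos (0.42 ± 0.055, FDR = 0.00771) and the RPF difference did not pass (0.34 ± 0.11, FDR = 0.175). *Apaf1*, the scaffold of the apoptosome (chr10:90989318-91082770, minus strand, 27 exons), had RNA of 91.3, 93.3 and 92.1 CPM in WT and 111, 101 and 108 CPM in LOF embryos, and RPFs of 43.2, 45.5 and 43.99 and 49.1, 46.2 and 49.5 CPM. Its groups were separate but close, with 0.21 ± 0.05, FDR = 0.0588 in RNA and 0.13 ± 0.08, FDR = 0.525 in RPFs, and the RNA call was lost in 8 of 14 alternative settings.

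The other apoptosis genes act on signalling or RNA. *Phlda3*, a pleckstrin homology domain protein that blocks AKT (chr1:135766119-135769136, plus strand, 2 exons), had RNA of 12.8, 12.01 and 14.8 CPM in WT and 52.5, 41.2 and 45.99 CPM in LOF embryos. Its RPFs were 5.58, 5.85 and 8.24 CPM in WT and 23.9, 19.7 and 26.4 CPM in LOF embryos. It rose by nearly equal amounts in both, 3.53-fold in RNA (1.82 ± 0.11, FDR = 6.9e-05) and 3.57-fold in RPFs (1.83 ± 0.17, FDR = 0.0017). *Trp53inp1*, a p53-induced nuclear protein (chr4:11156431-11174379, plus strand, 4 exons), had RNA of 34.8, 31.2 and 31.3 CPM in WT and 86.5, 71.8 and 63.9 CPM in LOF embryos. Its RPFs were 8.68, 7.14 and 8.03 CPM in WT and 16.5, 15.8 and 15.9 CPM in LOF embryos. It about doubled, by 2.31-fold in RNA (1.21 ± 0.10, FDR = 0.000743) and 2.01-fold in RPFs (1.01 ± 0.13, FDR = 0.0136). *Zmat3*, an RNA-binding zinc finger protein (chr3:32334792-32365678, minus strand, 6 exons), had RNA of 74.3, 85.6 and 66.3 CPM in WT and 169.9, 141 and 141 CPM in LOF embryos, and RPFs of 12.6, 12.1 and 11.5 and 26.4, 19.2 and 24.1 CPM. LOF embryo 2 had the fewest RPFs of the 3, and the differences were 1.00 ± 0.10, FDR = 0.00161 in RNA and 0.94 ± 0.14, FDR = 0.0187 in RPFs.

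*Aen*, an apoptosis-enhancing exonuclease (chr7:78895927-78911209, plus strand, 4 exons), had RNA of 95.4, 91.7 and 98.02 CPM in WT and 145, 130.1 and 132 CPM in LOF embryos, and RPFs of 37.3, 36.5 and 36.3 and 51.6, 49.8 and 57.6 CPM. The WT embryos lay close together in both, and the gene rose by like amounts, 0.52 ± 0.054, FDR = 0.00184 in RNA and 0.53 ± 0.087, FDR = 0.0275 in RPFs. *Ei24*, a p53-induced membrane protein of the endoplasmic reticulum (chr9:36779159-36797393, minus strand, 11 exons), had RNA of 100.0, 94.3 and 99.3 CPM in WT and 129, 119 and 115 CPM in LOF embryos, and RPFs of 18.6, 16.3 and 18.6 and 19.97, 27.2 and 20.9 CPM. LOF embryo 1 was highest in RNA and lowest of the 3 in RPFs, and the gene passed in RNA (0.31 ± 0.054, FDR = 0.0216) but not in RPFs (0.35 ± 0.14, FDR = 0.282). *Perp*, a membrane protein of cell junctions, was the 1 apoptosis gene tested that did not rise, with 0.22 ± 0.12, FDR = 0.365 in RNA and 0.16 ± 0.19, FDR = 0.784 in RPFs and groups that overlapped in both.

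Of the 6 genes of DNA repair and nucleotide supply, 2 rose in RNA and 1 of these also in RPFs. *Ercc5* encodes XPG, the endonuclease that makes the 3′ incision in nucleotide excision repair (chr1:44147847-44181260, plus strand, 15 exons). Its RNA was 31.8, 32.1 and 29.01 CPM in WT and 41.6, 40.5 and 42.5 CPM in LOF embryos, and its RPFs were 30.4, 34.4 and 31.7 and 50.4, 49.7 and 48.4 CPM. The 3 LOF embryos lay within a narrow range in both, and the gene rose in RNA (0.42 ± 0.072, FDR = 0.0216) and in RPFs (0.62 ± 0.085, FDR = 0.0161). *Rps27l*, a p53-induced paralog of the ribosomal protein gene *Rps27* (chr9:66946086-66949512, plus strand, 4 exons), had RNA of 173, 167 and 186 CPM in WT and 221, 219 and 199 CPM in LOF embryos, and RPFs of 171, 154 and 186 and 240.2, 210.4 and 179 CPM. It rose slightly in RNA (0.28 ± 0.059, FDR = 0.0403), while in RPFs LOF embryo 3 lay below WT embryo 3 (0.30 ± 0.10, FDR = 0.239). As 61.9% of the 30-base windows of its coding sequence occur in annotated pseudogenes, its values are uncertain. *Polk*, a translesion DNA polymerase, had all LOF embryos above all WT embryos in RNA and RPFs but passed in neither (0.31 ± 0.11, FDR = 0.199 and 0.56 ± 0.17, FDR = 0.162). *Rrm2b*, a subunit of ribonucleotide reductase, had -0.011 in RNA and -0.25 in RPFs. *Ddb2* and *Xpc*, which recognise DNA damage, had -0.039 and -0.066 in RNA and -0.28 and -0.18 in RPFs, and the groups of all 3 genes overlapped in both.

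Of the 8 genes with metabolic, secreted or membrane products, 7 were tested and 3 rose in both RNA and RPFs. *Ddit4l*, an inhibitor of mTORC1 signalling (chr3:137623672-137628333, plus strand, 3 exons), had RNA of 2.37, 2.42 and 3.08 CPM in WT and 11.1, 7.96 and 8.79 CPM in LOF embryos. Its RPFs were 2.19, 2.22 and 2.19 CPM in WT and 9.04, 6.05 and 4.66 CPM in LOF embryos. It rose 3.51-fold in RNA (1.81 ± 0.18, FDR = 0.00149) and 2.91-fold in RPFs (1.54 ± 0.27, FDR = 0.0357), with the RPFs of the LOF embryos spread over nearly 2 times. *Dcxr*, a reductase of dicarbonyls and L-xylulose (chr11:120725399-120727281, minus strand, 8 exons), had RNA of 2.596, 2.03 and 2.795 CPM in WT and 6.26, 5.19 and 5.25 CPM in LOF embryos, and RPFs of 3.11, 4.21 and 2.71 and 6.12, 7.098 and 5.23 CPM. The groups were separate in both, at 1.20 ± 0.17, FDR = 0.0101 in RNA and 0.88 ± 0.22, FDR = 0.0926 in RPFs, where 7 of 14 alternative settings lost the call. *Ak1*, the cytosolic adenylate kinase (chr2:32621758-32635058, plus strand, 7 exons), had RNA of 19.3, 18.1 and 17.3 CPM in WT and 34.3, 30.7 and 33.8 CPM in LOF embryos, and RPFs of 16.1, 13.9 and 15.6 and 26.1, 25.9 and 22.5 CPM. All LOF embryos were clearly above all WT embryos, at 0.86 ± 0.082, FDR = 0.00141 in RNA and 0.70 ± 0.12, FDR = 0.0275 in RPFs.

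*Tigar*, a fructose bisphosphatase that lowers glycolysis (chr6:127085116-127109550, minus strand, 6 exons), had RNA of 28.9, 27.8 and 29.8 CPM in WT and 25.9, 27.3 and 25.6 CPM in LOF embryos, and RPFs of 19.9, 19.7 and 18.97 and 19.8, 21.8 and 22.4 CPM. Its RNA was lower in every LOF embryo without passing the test (-0.13 ± 0.073, FDR = 0.413), and its RPFs overlapped (0.13 ± 0.10, FDR = 0.623). *Plxnb2*, a plexin receptor for semaphorins, and *Pltp*, a phospholipid transfer protein, had overlapping groups and differences of 0.013 and 0.21 in RNA and -0.053 and -0.038 in RPFs. *Ephx1*, the microsomal epoxide hydrolase, was at most 1.28 CPM in any RPF library, was the only gene tested that did not exceed 0.75 CPM in all 6 RPF libraries, and had wide errors (0.57 ± 0.54, FDR = 0.668 in RNA). The 2 genes that failed the filter had few reads, and in the alternative with no filter neither passed the test in RPFs or RNA. *Gdf15*, a secreted stress cytokine, had 0 to 2 reads in each RPF library and 1 to 6 in each RNA library. *Fas*, a death receptor, had 3, 3 and 6 RPF reads in WT and 4, 8 and 19 in LOF embryos, with 5, 5 and 8 against 12, 9 and 8 RNA reads, and its groups overlapped in CPM.

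RPFs followed RNA closely across these genes, and no gene differed in RPF/RNA at FDR under 0.1. Over the 35 genes the RPF and RNA log2 fold changes had a Pearson r of 0.96 and a Spearman rho of 0.936, which is given as a description across genes since both come from the same embryos and the genes were chosen for their change. The median RPF/RNA log2 fold change was -0.059, beside 0.0067 over all transcripts, and it ranged from -0.32 (*Dcxr*) to 0.45 (*Eda2r*), with FDRs near 1 throughout. Over all transcripts the test of RPF/RNA called 0 of 12576 at FDR under 0.1 and 559 at an unadjusted p under 0.05, and DESeq2 and limma-voom also called 0. Without LOF embryo 2 the test called 1 transcript higher and 22 lower, and none of these was a p53 target. At an unadjusted p under 0.05, 2 of the 35 genes differed, against 4.44% of all transcripts. These were *Tigar* (log2 0.26 ± 0.11, unadjusted p = 0.0346, FDR = 1) and *Mdm2* (log2 0.23 ± 0.10, unadjusted p = 0.04, FDR = 1), both with more RPFs per RNA in LOF embryos. The RPF/RNA ratio of *Mdm2*, on CPM, was 0.389, 0.347 and 0.383 in WT and 0.416, 0.484 and 0.412 in LOF embryos, and that of *Tigar* was 0.6897, 0.708 and 0.637 and 0.765, 0.797 and 0.876. The LOF embryos lay above the WT embryos in both genes, and after correction neither difference passed. For the 2 genes with the lowest RNA p among the arrest genes, *Ccng1* and *Cdkn1a*, the RPF/RNA differences were log2 -0.30 ± 0.17, unadjusted p = 0.0926, FDR = 1 and log2 0.18 ± 0.25, unadjusted p = 0.471, FDR = 1, of opposite sign and neither past the threshold.

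**Figure D3:**
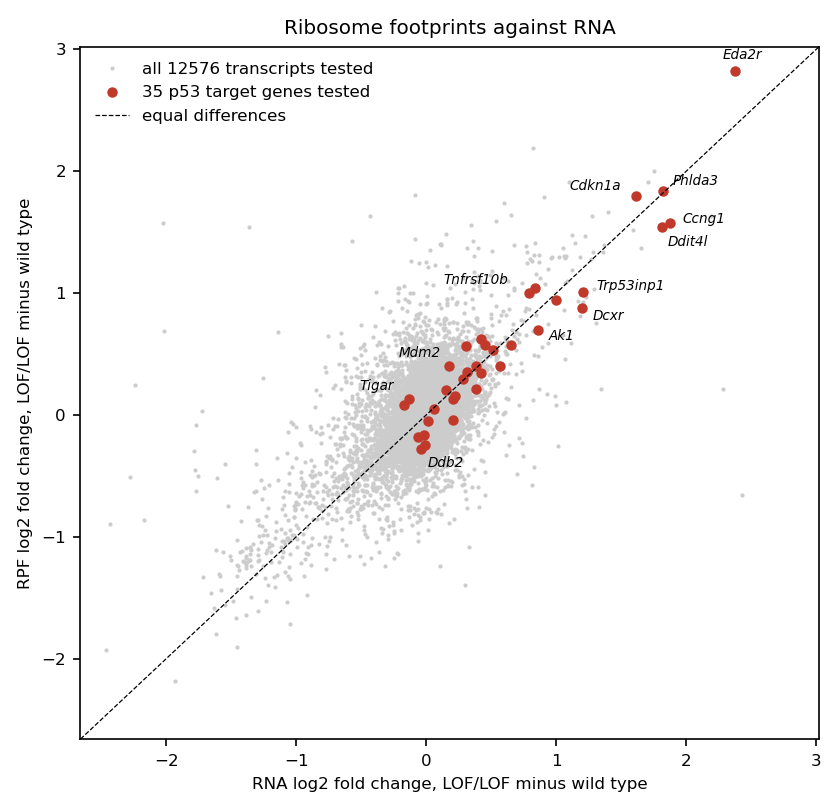
RPF log2 fold change against RNA log2 fold change, LOF/LOF minus wild type, for all 12576 transcripts tested (grey) and the 35 p53 target genes tested (red), with a dashed line at equal differences. The red points run from *Sesn1*, the lowest in RNA at -0.17 and at 0.078 in RPFs, to *Eda2r* at 2.37 in RNA and 2.82 in RPFs.

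The order of the LOF embryos was not the same in RNA and RPFs. On log2(CPM + 1), the median difference of the 35 genes from the WT mean was 0.396, 0.337 and 0.443 in the RNA and 0.317, 0.415 and 0.3000 in the RPFs of LOF embryos 1, 2 and 3, while the WT embryos lay between -0.0068 and 0.0229. The summed level of the 35 genes was 1743 to 1751 CPM in the RNA of WT embryos and 2316 to 2526 CPM in that of LOF embryos, and 1273 to 1331 against 1571 to 1720 CPM in RPFs, so neither set of ranges overlapped. LOF embryo 1 had the highest RNA value of the 3 for 23 of the 35 genes and the highest RPF value for 17, beside 33.8% and 36.1% of all transcripts tested. LOF embryo 2, the one with Y-linked reads, had the lowest RNA value for 19 and the lowest RPF value for 17, beside 26.3% and 36.4% of all transcripts. The visceral endoderm markers summed to 1141, 2259 and 904 CPM in the RNA of LOF embryos 1, 2 and 3, against at least 3203 CPM in WT. LOF embryo 3 had the highest median RNA difference and the lowest endoderm sum, LOF embryo 1 had the highest summed RNA level of the p53 targets, and the part of endoderm in these differences was not tested.

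**Figure D4:**
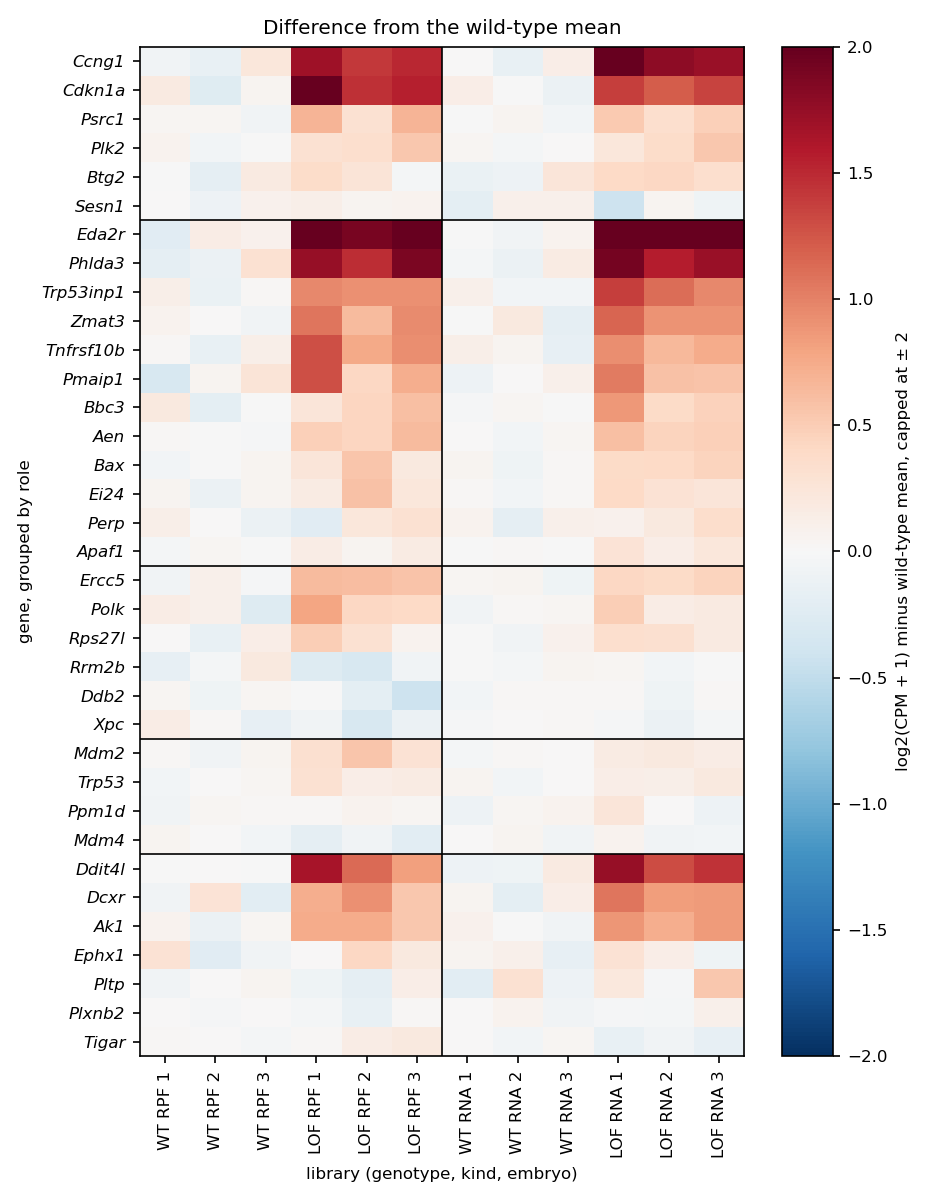
Difference of each p53 target gene tested from the wild-type mean on log2(CPM + 1) in each of the 12 libraries, RPF libraries on the left and RNA libraries on the right, with genes grouped by role and colours capped at 2 in either direction. *Eda2r*, *Ccng1*, *Phlda3*, *Cdkn1a* and *Ddit4l* are red in all 3 LOF/LOF embryos in both kinds of library, and the repair genes *Rrm2b*, *Ddb2* and *Xpc* stay pale.

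In wild-type embryos the genes spanned nearly the whole range of expression. Levels between genes are compared per length, as RPF CPM per kb of the counted coding sequence and RNA CPM per kb of transcript (mean ± SD, n = 3). *Rps27l* was highest, at 887 ± 84.3 for RPFs and 352 ± 20.1 for RNA, followed by *Trp53* at 329.7 ± 10.6 and 76.4 ± 3.12, which puts *Trp53* at the 95.9th percentile of all transcripts for RPFs and the 92.8th for RNA. *Bax* followed at 87.1 ± 3.55 and 65.96 ± 3.24, and the RPF levels of the 3 genes differed by far more than their SDs. *Cdkn1a* was at 17.8 ± 2.95 for RPFs but only 3.06 ± 0.355 for RNA. *Eda2r* and *Ddit4l*, among the genes with the largest differences, were low in WT RNA at 2.27 ± 0.114 and 0.964 ± 0.147. The genes that rose in RNA had WT RNA levels from the 9.91th to the 99.0th percentile, median 47.5, and the others from the 0.62th to the 92.8th, median 37.6.

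The WT ratio of RPF to RNA per kb set several genes apart. It was 5.85 ± 1.004 for *Cdkn1a*, at the 97.0th percentile of all transcripts tested, 4.47 ± 0.645 for *Ddit4l* (93.7th) and 4.32 ± 0.269 for *Trp53* (93.1th). At the other end it was 0.398 ± 0.0174 for *Ei24* (4.77th percentile), 0.594 ± 0.0192 for *Mdm4* (10.5th), 0.767 ± 0.0457 for *Plxnb2* (16.6th) and 0.821 ± 0.05002 for *Mdm2* (18.6th). These ratios are mean ± SD over 3 embryos, and the gaps between the high and the low genes were several times the SDs. Across the 35 genes the WT RNA level and the RNA log2 fold change had a Spearman rho of -0.228, a description in which both measures share the WT libraries.

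**Figure D5:**
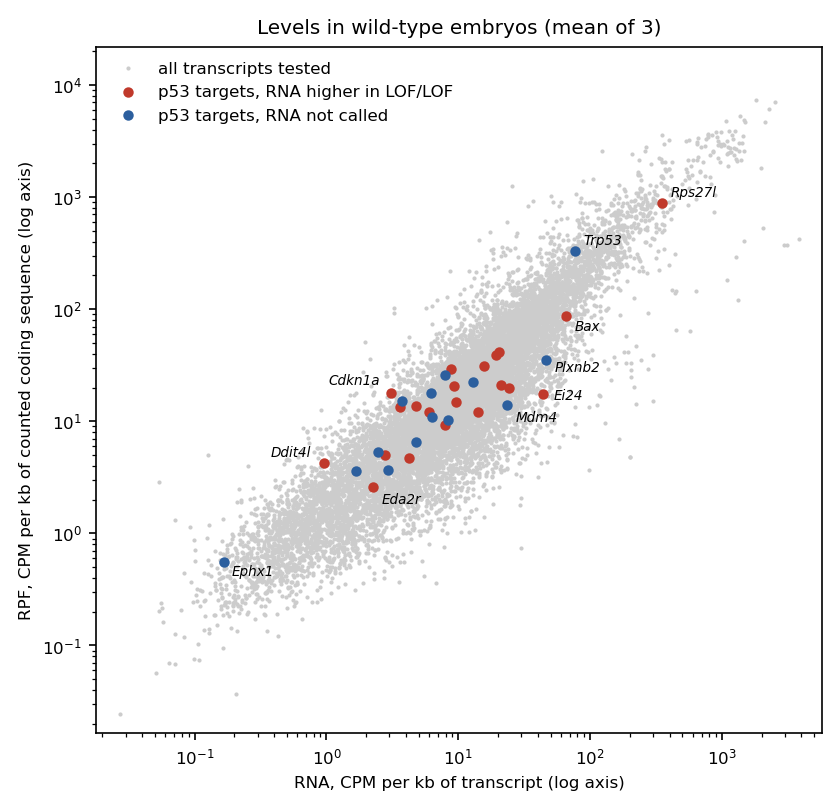
Mean RPF level against mean RNA level in the 3 wild-type embryos, each per kb and on log axes, for all transcripts tested (grey), for p53 target genes that rose in RNA in LOF/LOF embryos (red) and for the other p53 target genes tested (blue). *Trp53* and *Rps27l* stand at the upper end, *Ephx1* at the lower end, and red and blue points are mixed over the range.

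Among 40 other genes known as p53 targets, a list made with earlier results known, 39 were in the table and 37 were tested, and 6 rose and 1 fell in RNA (beside 1.77% and 3.25% of all transcripts) while 5 rose and 1 fell in RPFs (beside 1.05% and 1.15%). Their median log2 fold change was 0.051 in RNA and 0.084 in RPFs, beside -0.0018 and 0.0036 over all transcripts. With each embryo left out in turn, 3 to 8 of them were called in RNA, in fits that called 0.353% to 2.09% of all transcripts higher. *Sesn2*, a sestrin that restrains mTORC1, had RNA of 27.3, 27.3 and 28.3 CPM in WT and 54.2, 46.1 and 48.5 CPM in LOF embryos and rose in RNA (0.84 ± 0.078, FDR = 0.00129) and RPFs (0.82 ± 0.11, FDR = 0.0161). *Gtse1*, a microtubule-binding protein that carries p53 out of the nucleus, rose in RNA (0.47 ± 0.051, FDR = 0.00211) and RPFs (0.52 ± 0.082, FDR = 0.0253). *Slc19a2*, a thiamine transporter, had RNA of 10.3, 10.3 and 11.5 CPM in WT and 31.9, 20.7 and 22.3 CPM in LOF embryos and also rose in both (1.23 ± 0.16, FDR = 0.00715 and 0.97 ± 0.19, FDR = 0.0562). *Pidd1*, the scaffold of the caspase-2 platform, *Ptp4a3*, a phosphatase, and *Steap3*, a ferrireductase, rose in RNA (0.38, 0.48 and 0.93) and did not pass in RPFs. Of the 6 genes that rose in RNA, 5 had an unadjusted p under 0.05 in RPFs, beside 1727 of all 12576 transcripts. In RPF/RNA 0 of the 37 passed, as over all transcripts. *Crip2* and *Igfbp3*, the latter named after its values were seen, passed in RPFs and not in RNA (0.42 and 0.47 in RPFs, FDR = 0.144 and 0.515 in RNA). *Dram1*, a lysosomal autophagy protein, had RNA of 4.51, 3.61 and 3.57 CPM in WT and 1.85, 2.27 and 1.72 CPM in LOF embryos and fell in RNA (-0.94 ± 0.19, FDR = 0.0315) and RPFs (-1.32 ± 0.24, FDR = 0.0437).

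Lists of genes around p53 other than its targets held few calls, beside 1.77% of all transcripts that rose and 3.25% that fell in RNA. Of 32 regulators of p53 tested, among them *Rpl5*, *Rpl11*, *Atm* and *Chek1*, 2 rose in RNA and none changed in RPFs: *Nop53*, a nucleolar protein of large subunit assembly (0.27 ± 0.048, FDR = 0.0235), and *Hipk2*, a kinase of p53 (0.33 ± 0.053, FDR = 0.0165). Of the 32, 7 had an unadjusted p under 0.05 in RNA, these 2 included, beside 2143 of all 12576 transcripts. The RNA differences of the 32 ran from -1.31 (*Cdkn2a*, FDR = 0.294, at most 1.35 CPM in any embryo) to 0.33. Of 23 genes of the apoptosis machinery that are not in the lists of p53 targets, 1 fell in RNA, the BH3-only gene *Bmf* (-0.33 ± 0.061, FDR = 0.0261), and none changed in RPFs. Of 20 mitotic genes that p53 is known to repress through p21, 1 fell in RNA, the kinase gene *Aurkb* (-0.16 ± 0.044, FDR = 0.0934), and none changed in RPFs, where the median log2 fold change was 0.015.

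The number of calls changed with the embryos included and with a term for Y-linked reads. With the summed level of the 4 Y chromosome genes as a term in the model, 9 of the 21 genes passed in RNA and 7 of the 14 in RPFs, while the transcripts called higher over the whole table fell from 222 to 22 in RNA and from 132 to 18 in RPFs. The median differences of the 35 genes were then 0.35 in RNA and 0.45 in RPFs. The Y chromosome term overlaps with genotype, since only LOF embryos 1 and 3 were almost without Y-linked reads. A part of embryo sex in the lost calls cannot be told apart from precision lost to that overlap. *Cdkn1a*, *Ccng1*, *Phlda3* and *Eda2r* passed in RPFs and RNA in all 14 alternative settings, and *Aen*, *Zmat3*, *Trp53inp1*, *Ak1* and *Ddit4l* passed in RNA in all 14.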

How the data were processed

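Counts per transcript were taken as deposited. The authors trimmed, deduplicated by molecular identifier and aligned reads with cutadapt, UMI-tools and bowtie2 to GRCm38/mm10 transcripts (GENCODE VM20, 1 per gene). They then counted RPF reads with the A site in the coding sequence outside its first 15 and last 5 codons, and RNA reads over the whole transcript. Here the 22467 transcripts were matched to GENCODE vM21 for symbols and coordinates, 477 in another version (*Pmaip1* and *Fas* among them) and 3 without a match.

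Transcripts with CPM over 0.75 in at least 3 RPF libraries were kept and RPF and RNA were TMM-scaled separately. The genotypes were compared with edgeR 4.0.16 (quasi-likelihood, genotype only, Benjamini-Hochberg FDR under 0.1), and RPF/RNA as the interaction of genotype and library over 12 libraries. The code was tested on simulated data. The study's own voom, sva and locfdr steps lack a stated design, so limma 3.58.1, sva 3.50.0 and DESeq2 1.42.0 served as alternatives, with other scalings, filters, a replicate block, a Y chromosome term and each embryo left out (16 settings with the main one). The replicates of a genotype are single embryos, and the precision is set by 3 embryos a group and by counts per library of 7041357 to 26561843. Members and lists were chosen with earlier results of these data known. All members are named, and those past FDR 0.1 in RPFs or RNA, or with unadjusted p under 0.05 for RPF/RNA, are given embryo by embryo. Of other lists, genes past FDR 0.1 are named, at most 8 per list by lowest RNA FDR, apart from *Igfbp3*. Reads shared with other genes were gauged from 30-base windows of GENCODE vM21 transcripts. Promoters come from RefSeq GRCm38.p6 and were searched as described beside them.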

Additional observations from a re-analysis of the deposited data

How the results depend on the processing

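Of the p53 targets called, 4 of 14 in RPFs and 9 of 21 in RNA passed in all 14 alternative settings. With DESeq2, limma-voom, RLE scaling, no filter or a stricter filter, 14 to 16 targets were called in RPFs and 21 to 22 in RNA. Over all transcripts these settings called 1.06% to 1.24% higher in RPFs and 1.39% to 2.0% in RNA. With limma-voom and 2 surrogate variables 21 and 19 targets were called, beside 5.09% and 1.31% of all transcripts called higher. With Y chromosome genes as a term, 7 targets were called in RPFs and 9 in RNA, beside 0.143% and 0.175% of all transcripts called higher. Of the other p53 targets 3 were called in RNA. Leaving out each embryo in turn, the calls ranged from 4 to 18 in RPFs and from 15 to 20 in RNA, and those among the other p53 targets from 3 to 8, where the fits with all embryos gave 14, 21 and 7. The lowest counts came without WT embryo 2 (4 in RPFs) and without WT embryo 1 (5 in RPFs, 15 in RNA, 3 of the other targets). Those fits called 0.0321% of all transcripts higher in RPFs without WT embryo 2, and 0.0802% in RPFs and 0.353% in RNA without WT embryo 1. The highest count in RPFs, 18, came without LOF embryo 2, beside 5.11% of all transcripts called higher. The median log2 fold change of the targets lay between 0.37 and 0.45 in RPFs, between 0.35 and 0.40 in RNA over all settings, and between -0.077 and -0.0015 in RPF/RNA over those run for it. No p53 target was called in RPF/RNA in the settings run for it, embryo block included, and surrogate variables were not run for RPF/RNA.

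The labels do not say whether same-numbered embryos of different genotypes share a litter or batch. The deviations of such embryos were little correlated (between -0.1 and 0.0819), which cannot decide it. With the number as a replicate block 15 targets were called in RPFs and 19 in RNA, beside 1.11% and 1.45% of all transcripts called higher. No alternative turned the direction of a called gene. Among uncalled genes the sign changed for *Pltp* RNA (-0.12) and *Plxnb2* RNA (-0.056) with the Y chromosome term and for *Rrm2b* RNA (0.0042) with surrogate variables. Leaving out embryos gave signs of both kinds for *Pltp* RPFs (-0.14 to 0.038), for the RNA of *Ddb2* (-0.075 to 0.015), *Rrm2b* (-0.047 to 0.021), *Mdm4* (-0.071 to 0.016), *Ppm1d* (-0.056 to 0.12) and *Plxnb2* (-0.032 to 0.055), and, of the 6 genes whose RPF/RNA was recomputed singly, for that of *Dcxr* (-0.57 to 0.019). The cause of these changes was not tested. With 3 embryos a genotype and under 5 CPM of RPFs in WT, genes such as *Bbc3*, *Pmaip1* and *Ephx1* had SEs of 0.23 to 0.42 in RPFs. Differences well above the SE did not pass there, such as 1.00 ± 0.28 for *Pmaip1* and 0.57 ± 0.23 for *Bbc3*.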
